A study of Mus musculus with 6 samples.

Results

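The genes of tubulins and of the proteins that fold, bind and modify them were followed in sorted ependymal cells, the multiciliated cells that line the brain ventricles. Members were taken by gene symbol: the alpha, beta, gamma, delta and epsilon tubulins and the gamma-tubulin complex proteins (Tub genes), the tubulin tyrosine ligase-like enzymes (Ttll), the carboxypeptidases that remove glutamates (Agbl), the folding cofactors (Tbc), the tubulin polymerization promoting proteins (Tppp), the partners of the TTLL1 enzyme (Tpgs), the acetyltransferase Atat1 and the detyrosinases Vash1 and Vash2. This gave 56 genes of the 47643 listed, of which 47 had a count in at least 1 library and 36 passed the filter on low counts. The cells were purified from the adult mouse ventricular-subventricular zone by flow cytometry, with a gate set on GFP, 2 days after tamoxifen. Tamoxifen switched on GFP in the ependymal layer. It also deleted Ccn1, the gene of a secreted matrix protein, in the 3 knockout samples (Ccn1cKO, titled CKO and written cKO here). The 3 control samples (Ctrl, titled CTR) were sorted in the same way; their genotype is described no further. Cre driver, alleles, exact ages and the number of animals behind a sample were left unstated in the sources used here, so p-values measure only the spread between these samples, which may be technical. The labels call the material both total RNA and cytoplasmic RNA.

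Alpha and beta tubulin form the dimer from which microtubules are built, and several genes encode near-identical isotypes of each. Their carboxy-terminal tails face outwards, and enzymes add chains of glutamate or glycine to them, which tune the motors and severing enzymes that read the axoneme, the microtubule core of a cilium. Other enzymes remove the last tyrosine of alpha tubulin or acetylate a lysine inside the microtubule. Axonemes of motile cilia are among the most heavily glutamylated and glycylated microtubules of the body. Gamma tubulin with its complex starts new microtubules, and delta and epsilon tubulin serve the triplet microtubules of centrioles and basal bodies.

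The coding ends of the tubulin genes carry these tails, and they are shown for the 3 abundant beta isotypes. Each is the last 60 bases of the coding sequence, stop codon included, 5′ to 3′, from GENCODE M21 on GRCm38. Capitals mark the 4 codons glutamate, glycine, glutamate, phenylalanine, the tail motif known from beta tubulins of motile axonemes.
Tubb4b: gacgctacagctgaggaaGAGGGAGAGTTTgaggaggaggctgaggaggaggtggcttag
Tubb2a: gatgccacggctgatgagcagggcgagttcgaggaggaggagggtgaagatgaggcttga
Tubb5: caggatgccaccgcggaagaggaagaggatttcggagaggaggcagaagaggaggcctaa

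All 3 stretches lie on the minus strand, at chr2:25222308-25222367 for Tubb4b, chr13:34074468-34074527 for Tubb2a and chr17:35834982-35835041 for Tubb5. Of the 20 codons shown, stop included, glutamate took 10 in Tubb4b, 8 in Tubb2a and 9 in Tubb5. Tubb4b was the only one of the 3 with the marked motif, and 6 of its 9 codons after it encode glutamate. The coding sequences of Tubb4b and Tubb2a, both 1338 bases long, differed at 220 bases (83.6% identity).

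The libraries held 13401499 to 15689579 estimated counts each. Ccn1 (chromosome 3 from 145646976 to 145649981) stood at 29.8, 17.7 and 38.5 CPM for cKO 1 to 3, against 110, 149 and 142 for control 1 to 3, and so each sample went with its label. Its log2 difference was -2.22 ± 0.38 (SE), which edgeR did not call (adjusted p = 0.99999) and DESeq2 did (adjusted p = 4.15e-06). CPM are counts scaled to a common library size by TMM, a method that trims extreme genes. The ependymal markers fixed for the check were all detected (10 of 10) and summed to 10310 ± 59.8 CPM over the cKO libraries against 10730 ± 1662 over the control libraries (SD, n = 3 per genotype). Endothelial markers were at 0.0744 CPM or less in every library, with 3 of the 4 at 0 in all libraries. Neuron markers summed to 4.86 to 21.3 CPM, with Nefm, Rbfox3 and Slc17a7 at 0. Oligodendrocyte markers summed to 201 to 620 CPM, of which Cnp was the largest part, with Mog and Sox10 at 0. Choroid plexus markers (5 of 5 with a count) summed to 269 to 809 CPM in the cKO and 506 to 611 in the control. Folr1, the highest of them by mean, lay between 257 CPM (cKO 3) and 474 CPM (control 1), and Ttr between 0.220 and 429 CPM. Mural markers summed to 487 to 513 CPM in the cKO and 283 to 568 in the control, nearly all of it Acta2, with Myh11 at 0. The part of these cell types in the results was not tested.

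All members together took 0.732% to 0.907% of the TPM of a library, a transcript abundance corrected for length that is used here for every comparison between genes. Alpha tubulins summed to 3882 ± 356 TPM in the cKO and 4369 ± 270 TPM in the control, and beta tubulins to 1739 ± 382 and 1724 ± 400 TPM (SD, n = 3 each). Alpha transcripts outnumbered beta transcripts in every library, by 1.88-fold (cKO 2) to 3.21-fold (control 1). These sums are described without a test.

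Alpha tubulin was almost wholly Tuba1a and Tuba1b. Tuba1a, a major alpha isotype of the brain, stood at 3687, 3078 and 3176 TPM in the cKO samples and 3367, 3993 and 3832 TPM in the controls. The groups overlapped, and by mean TPM Tuba1a ranked 27th of all genes listed. Tuba1b, a widely expressed isotype, stood at 592, 617 and 480 TPM in the cKO and 710, 617 and 587 TPM in the control, again with overlap. Tuba1a made up 82.6% to 86.9% of alpha tubulin TPM over the 6 libraries (85.3 ± 1.87% in the cKO and 85.3 ± 2.36% in the control) and Tuba1b 13.1% to 17.4%. Tuba1a exceeded Tuba1b by 4.74-fold to 6.62-fold. The genes lie near each other on chromosome 15, Tuba1b from 98931425 to 98934565 and Tuba1a from 98949837 to 98953703, with Tuba1c next to them from 99029891 to 99038110.

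The division between Tuba1a and Tuba1b is an estimate. Of the 31-base words in the annotated transcripts of Tuba1a, 78.6% also occur in some other annotated gene, and 78.7% of those of Tuba1b do. The largest overlap with a single gene was 54.7% for Tuba1a, with Tuba1c. For Tuba1b it was 61.1%, with AC157548.1, which is not among the genes listed. The overlap of Tuba1a with Tuba1b alone is not given here. Reads from words that occur in several genes are shared out by the authors' pseudoalignment. The shared share was 53.0% for Tubb4b, mostly with its pseudogene Tubb4b-ps1, 56.4% for Tubb2a, mostly with Tubb2b, and 3.5% for Tubb5. The files gave 1, 0, 1, 1, 5 and 2 counts to Tubb4b-ps1 over the cKO 1 to 3 and control 1 to 3 libraries, and at most 1 to Tubb4b-ps2.

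Of the other 6 alpha tubulin genes, 5 were at 2.84 TPM or less in every library, and Tubal3 stood at 12.6 TPM in cKO 1 and at 0.393 TPM or less elsewhere. Tuba3a, Tuba3b and Tuba8 had no count in any library, which allows up to 0.192 to 0.223 CPM per library (3 counts, counting error only). Tuba4a, the isotype without a coded final tyrosine, had 3 counts in cKO 2, 2 in control 1 and 0 elsewhere. Tuba1c had between 5 and 57 counts in each library, 57 of them in cKO 2. Tubal3 had 446 counts in cKO 1, 13 in control 2 and at most 2 in any other library.

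**Figure D1:**
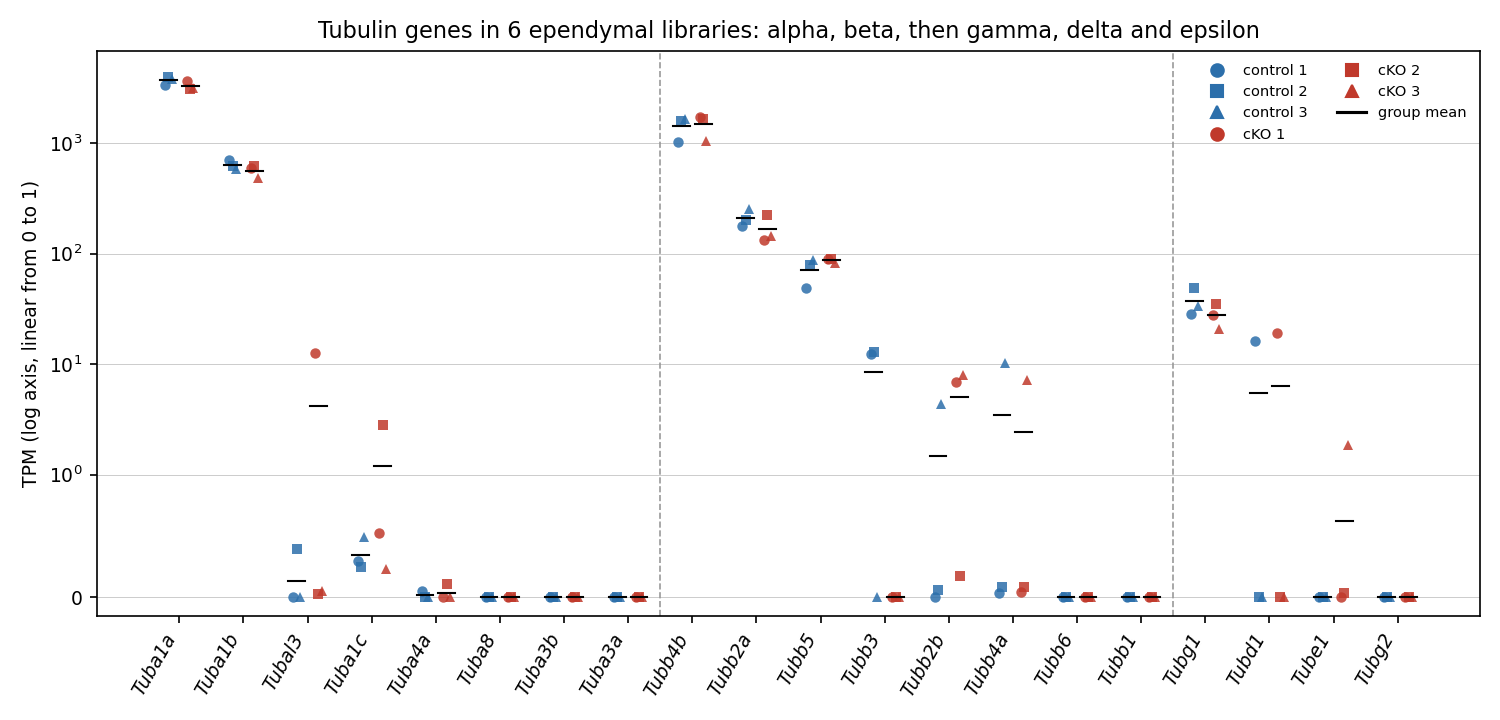
TPM of the 20 tubulin genes in each of the 6 libraries (points, blue for control and red for cKO) with the mean of each genotype (black bars), on a log axis that is linear from 0 to 1 TPM. Tuba1a and Tubb4b stand above 1000 TPM in every library, and Tuba8, Tuba3a, Tuba3b, Tubb6, Tubb1 and Tubg2 are at 0 in all.

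Beta tubulin was dominated by Tubb4b. It stood at 1718, 1659 and 1055 TPM in the cKO samples and 1032, 1588 and 1668 TPM in the controls. The low values were those of cKO 3 and control 1, 1 library of each genotype. Tubb4b made up 84.5 ± 3.49% of beta tubulin TPM in the cKO and 82.7 ± 1.57% in the control, with a range of 81.3% to 88.2% over the 6 libraries. So the most abundant beta tubulin transcript in all 6 libraries was that of Tubb4b, which carries the axonemal tail motif. Among beta tubulins, only the coding ends of Tubb4b, Tubb2a and Tubb5 were read for that motif.

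Tubb2a, a neural isotype, stood at 133, 222 and 145 TPM in the cKO and 176, 202 and 252 TPM in the control, with overlap and 6.83% to 13.9% of beta tubulin TPM. Tubb5, the broadly expressed isotype, stood at 89.9, 89.7 and 83.1 TPM in the cKO and 49.1, 78.7 and 87.3 TPM in the control, 3.86% to 6.40% of beta tubulin TPM. Tubb4b exceeded Tubb2a by 5.85-fold to 12.9-fold and Tubb5 by 12.7-fold to 21.04-fold. Every library thus gave the order Tubb4b, Tubb2a, Tubb5.

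**Figure D2:**
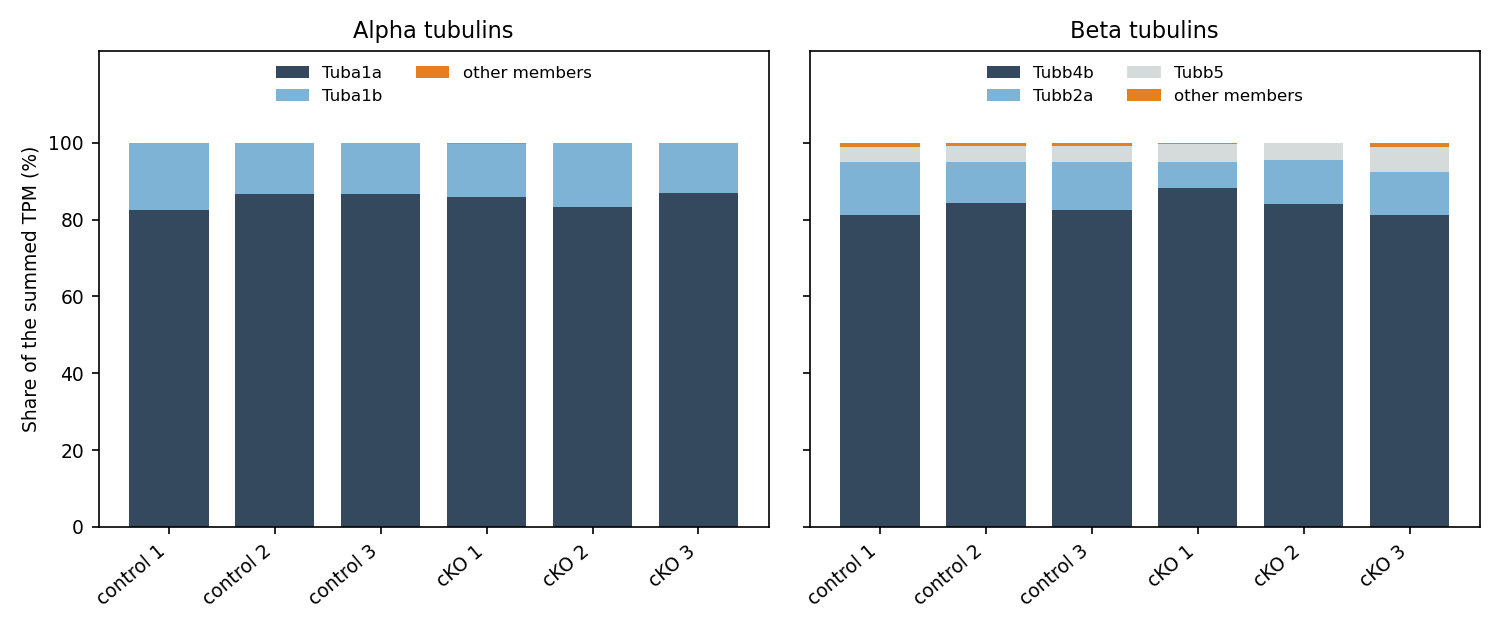
Stacked bars of the share of summed TPM (%) taken by each isotype among alpha tubulins (left) and beta tubulins (right), 1 bar per library. Tuba1a stays between 82.6% and 86.9% and Tubb4b between 81.3% and 88.2% in all 6 libraries.

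The other 5 beta tubulin genes were at or near 0 in some or all libraries. Tubb3, the isotype used as a marker of neurons, had 297 counts in control 1, 243 in control 2 and 0 in the remaining libraries, so 2 of 3 controls and no cKO library carried it. It did not pass the filter on low counts, and DESeq2, which was run without that filter, gave it an adjusted p of 0.0983. Neuron markers (6 of 9 with a count) summed to 4.86, 21.3 and 10.9 CPM for cKO 1 to 3 against 11.3, 11.0 and 10.7 for control 1 to 3, and the groups overlapped. Single markers differed in direction: Stmn2 had 171 counts in control 1, 81 in control 2 and 94 in cKO 3, whereas Snap25 had 159 in cKO 2 and 38 in control 2 and Nefl 67 in cKO 1 alone. Markers of neuroblasts and dividing cells (7 of 7 with a count) summed to 38.5 to 48.1 CPM over the cKO libraries and 51.4 to 69.5 over the controls, without overlap. The sums of every other marker list checked overlapped, and of single genes 9.62% of all tested did not overlap. Within the neuroblast list Dcx had 374 counts in control 1 and at most 4 elsewhere, while Sox11 was lowest in control 1. The part of such cells in the Tubb3 values was not tested. In bulk samples, fewer cells of a type and less RNA per cell cannot be told apart.

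Tubb4a, an isotype of neurons and oligodendrocytes, had 178 counts in cKO 3, 273 in control 3 and at most 2 in the others. The oligodendrocyte markers (8 of 10 with a count) summed to 402, 412 and 456 CPM for cKO 1 to 3 against 201, 363 and 620 for control 1 to 3, and the part of oligodendrocytes in these values was not tested. Tubb2b, an isotype of developing neurons, had 143 counts in cKO 1, 167 in cKO 3, 98 in control 3 and at most 3 elsewhere. Tubb1, the platelet isotype, and Tubb6 had no count in any library.

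All gamma tubulin counts were assigned to Tubg1. It stood at 27.9, 35.1 and 20.7 TPM in the cKO and 28.6, 48.7 and 33.8 TPM in the control, and Tubg2, its close copy, had no count. Words shared between Tubg1 and Tubg2 were not examined, so this division is an estimate too. Tubd1, the delta tubulin gene, had 384 counts in cKO 1, 391 in control 1 and 0 in the other 4 libraries. Tube1, the epsilon tubulin gene, had 62 counts in cKO 3, 1 in cKO 2 and 0 elsewhere. The gamma-tubulin complex genes varied widely between libraries: Tubgcp2 stood at 40.9, 19.6 and 18.5 TPM in the cKO and 1.35, 28.9 and 0.913 TPM in the control. The remaining members of the complex were lower, with means of 7.28 TPM for Tubgcp5, 4.35 for Tubgcp3, 1.69 for Tubgcp4 and 0.727 for Tubgcp6.

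Glutamylases, which add glutamate chains to tubulin tails, summed to 159 ± 38.9 TPM in the cKO and 122 ± 21.04 TPM in the control (SD, n = 3 each). Ttll9 and Ttll1 led them. Ttll9, known from motile cilia and sperm flagella, stood at 44.3, 104 and 73.2 TPM in the cKO and 30.2, 58.5 and 48.2 TPM in the control. Ttll1, which encodes the catalytic subunit of a polyglutamylase complex, stood at 64.8, 67.9 and 58.9 TPM in the cKO and 74.6, 61.8 and 25.7 TPM in the control. Either could be the higher in a library, since the Ttll9 to Ttll1 ratio ran from 0.405 to 1.88. Ttll9 took 25.1% to 51.5% of glutamylase TPM and Ttll1 25.1% to 61.9%.

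Tpgs1, a subunit of the TTLL1 complex, stood at 263, 153 and 137 TPM in the cKO and 218, 182 and 172 TPM in the control, with overlap and 2.26-fold to 6.69-fold above Ttll1. Tpgs2, a further subunit, stood at 83.2, 41.0 and 66.5 TPM in the cKO and 63.96, 65.0 and 56.4 TPM in the control, a range that overlapped that of Ttll1. So Tpgs1 exceeded Ttll1 in all 6 libraries, and Tpgs2 did not.

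Other glutamylases were low. Ttll13 stood at 10.6, 18.7 and 10.4 TPM in the cKO and 0, 11.1 and 20.4 TPM in the control, with control 1 alone at 0. Ttll5 stood at 4.46, 1.42 and 3.80 TPM in the cKO and 8.41, 10.7 and 4.87 TPM in the control, with every cKO value below every control value. Ttll6, which elongates glutamate chains in cilia, had a mean of 2.27 TPM and a range of 0.592 to 5.81 TPM. Ttll11 and Ttll7 had means of 1.28 and 0.602 TPM and Ttll4 of 0.246 TPM, and Ttll2 had no count.

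Glycylases, which add glycine to the same tails, summed to 115 ± 27.0 TPM in the cKO and 76.0 ± 17.5 TPM in the control (SD, n = 3 each). Ttll3, which places the first glycine, stood at 89.6, 87.0 and 141 TPM in the cKO and 84.7, 50.8 and 58.3 TPM in the control. It made up 78.1% to 96.9% of glycylase TPM. Ttll8, the other initiating enzyme, stood at 2.92, 1.63 and 0.264 TPM in the cKO and 0.347, 4.67 and 2.29 TPM in the control, so Ttll3 exceeded it by 10.9-fold to 535-fold. Ttll10, which elongates glycine chains, stood at 12.5, 5.76 and 4.26 TPM in the cKO and 11.1, 9.57 and 6.11 TPM in the control. Summed glutamylase TPM was 1.01-fold to 2.22-fold that of glycylases. Ttll12, a family member without these known activities, had a mean of 2.11 TPM and 2 or fewer counts in cKO 2 and cKO 3.

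**Figure D3:**
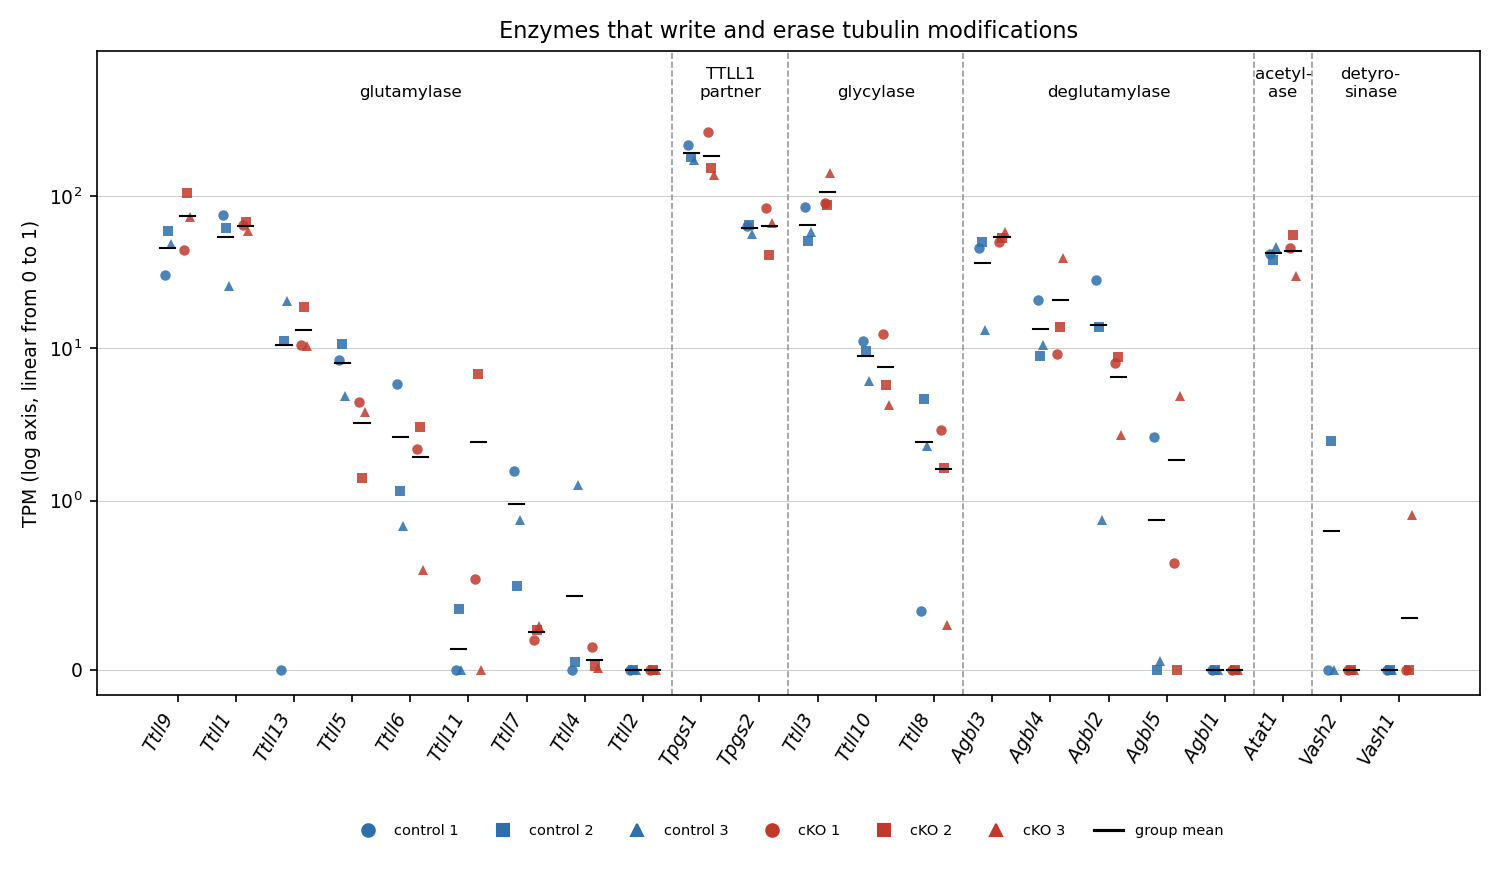
TPM of the enzymes and enzyme partners that write or erase tubulin modifications, in each of the 6 libraries (points, blue for control and red for cKO), with the mean of each genotype (black bars), on a log axis that is linear from 0 to 1 TPM. Ttll9 and Ttll1 lead the glutamylases, Ttll3 the glycylases and, by mean TPM, Agbl3 the deglutamylases, while Vash1 and Vash2 were each above 0 in a single library.

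Deglutamylases, which trim glutamate chains, summed to 82.9 ± 19.7 TPM in the cKO and 65.1 ± 37.1 TPM in the control (SD, n = 3 each). Agbl3, the leading member by mean TPM, stood at 50.2, 52.9 and 58.4 TPM in the cKO and 45.9, 50.1 and 13.3 TPM in the control. Control 3 was the low library on this scale, although its 359 counts were not far below the 492 and 442 of the other controls. The CPM values, given with the comparison of the groups, put control 3 lowest too. Agbl4 stood at 9.18, 13.9 and 39.3 TPM in the cKO and 20.9, 8.94 and 10.5 TPM in the control, where cKO 3 alone stood high. Agbl2 stood at 8.04, 8.71 and 2.70 TPM in the cKO and 28.3, 13.8 and 0.887 TPM in the control, spanning both extremes within the control group. Agbl5, which removes the glutamate at a branch point, had 184 counts in cKO 3, 118 in control 1, 24 in cKO 1 and at most 2 elsewhere, and Agbl1 had none.

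Atat1, the acetyltransferase of alpha tubulin, stood at 45.9, 55.5 and 29.9 TPM in the cKO and 41.7, 38.0 and 46.5 TPM in the control, and the groups overlapped. Vash1 and Vash2, the enzymes that remove the final tyrosine of alpha tubulin, were at 0 in most libraries: Vash1 had 27 counts in cKO 3 and Vash2 106 in control 2, and both had 0 in the other libraries. Svbp, the small protein that vasohibins need as a partner, was present at 161 ± 15.1 TPM in the cKO and 170 ± 15.7 TPM in the control (SD, n = 3 each).

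Tppp3, a microtubule-bundling protein gene, was the third most abundant member. It stood at 1466, 1529 and 1210 TPM in the cKO and 1505, 1516 and 1346 TPM in the control, with the smallest relative spread of the members with a count (8.82% of its mean over the 6 libraries). Tppp, a gene known from oligodendrocytes, was far lower, at 5.97, 5.70 and 2.95 TPM in the cKO and 4.62, 0.0876 and 3.96 TPM in the control, and Tppp2 had no count. Control 2, with 5 counts, was the low library for Tppp. The part of oligodendrocytes in that value was not tested.

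The folding cofactors, which help assemble the tubulin dimer, were led by Tbca, a beta tubulin partner, at 384, 351 and 336 TPM in the cKO and 342, 234 and 305 TPM in the control. Tbcb, an alpha tubulin partner, stood at 131, 97.8 and 74.7 TPM in the cKO and 136, 94.4 and 108 TPM in the control. For both genes the groups overlapped. The other cofactors were lower and less even. Tbcc stood at 30.4, 48.1 and 49.1 TPM in the cKO and 32.4, 31.9 and 70.6 TPM in the control. Tbce stood at 14.8, 24.0 and 3.72 TPM in the cKO and 0.0425, 32.7 and 15.2 TPM in the control. Tbcd had 293 counts in cKO 2, 297 in control 1 and at most 5 in the other 4 libraries. Tbca and Tbcb thus were present in all 6 libraries, and Tbcd was close to 0 in 4 of 6.

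Ranked by mean TPM, the members came in the order Tuba1a, Tubb4b, Tppp3, Tuba1b, Tbca, Tubb2a, Tpgs1, Tbcb, Ttll3 and Tubb5. The range of Tuba1a over the 6 libraries lay clear above that of Tubb4b, while Tubb4b and Tppp3 overlapped. Tppp3 lay clear above Tuba1b, Tuba1b above Tbca, and Tpgs1 above Tbcb. Tbca overlapped Tubb2a and Tubb2a overlapped Tpgs1, as did each neighbour from Tbcb down to the last of the 22 members with a mean of at least 10 TPM.

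The comparison of cKO with control samples asked whether loss of Ccn1 went with other levels of these genes. Over all 11574 genes tested, edgeR's quasi-likelihood test called 0% at a Benjamini-Hochberg adjusted p of 0.05, and of the 36 members that passed the filter it called 0 (adjusted p = 0.99999 for the smallest). Under an unadjusted p of 0.05 there were 0 members, where 2.75% of all genes tested passed (1.43% higher and 1.31% lower in the cKO). DESeq2 called 0 members, against 1.63% of the genes to which it gave an adjusted p. Of the 40 members with a DESeq2 p, 1, Tubb3, was under an unadjusted 0.05, where 6% of all genes with a p passed. Of the 36 members that passed the filter, 35 had a DESeq2 adjusted p, and Tubgcp2 had no DESeq2 p. limma-voom called 0, with 2 of the 36 members under an unadjusted p of 0.05, where 5.25% of all genes passed. These were Tubgcp2 (limma-voom unadjusted p = 0.034) and Tuba1a (0.042). The log2 difference was above 0 for 15 of the 36 members and below 0 for 21, with a median of -0.064, beside 5823 above, 5751 below and a median of 0.0044 over all genes tested.

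The size of difference that these samples allow varied with abundance. For Tuba1a the log2 difference was -0.17 ± 0.11 (SE), with a 95% interval from 0.749-fold to 1.06-fold. For Tubb4b it was 0.057 ± 0.21, with an interval from 0.744-fold to 1.46-fold, and for Tppp3 -0.061 ± 0.15, from 0.759-fold to 1.21-fold. These 3 intervals lay within 1.5-fold in either direction. A further 6 members (Tuba1b, Tubb2a, Tubb5, Tpgs1, Tpgs2 and Tbcb) had intervals within 2-fold, which makes 9 of the 12 members with a mean of at least 1000 counts. For the 10 tested members with a mean under 200 counts the upper bound exceeded the lower by at least 172-fold, so the spread between these samples left even large changes undetectable.

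**Figure D4:**
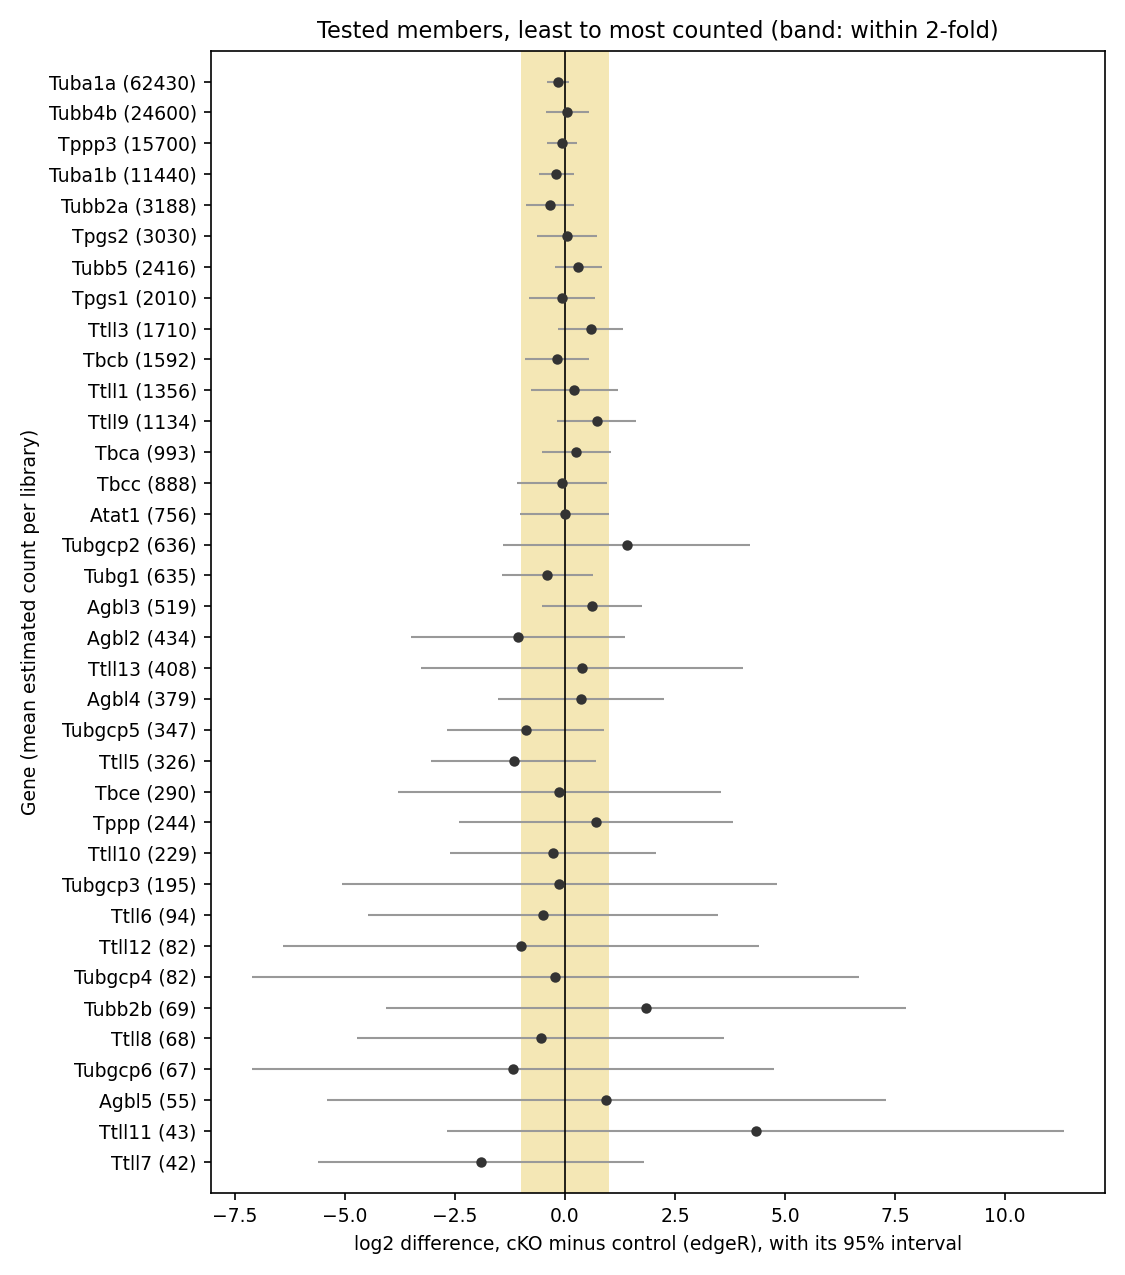
Log2 difference between cKO and control (points) with its 95% interval (lines) by edgeR for the 36 tested members, ordered by mean estimated count per library, which stands in parentheses after each name; the band marks differences within 2-fold. The intervals of 9 members lie inside the band, and every interval includes 0.

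Groups that did not overlap in CPM were found for 3 of the 36 members (8.33%), beside 9.62% of all genes tested (4.99% with the cKO higher and 4.62% lower). Tubb5 was higher in the cKO, at 195, 187 and 184 CPM against 116, 161 and 181 CPM (log2 difference 0.31 ± 0.23), although its TPM values overlapped. Agbl3 was higher in the cKO, at 36.6, 45.6 and 51.5 CPM against 32.6, 32.3 and 22.9 CPM (log2 difference 0.61 ± 0.49). Ttll5 was lower in the cKO, at 19.5, 5.88 and 16.8 CPM against 31.2, 43.6 and 19.8 CPM (log2 difference -1.16 ± 0.81). The exact two-sided permutation p of each was 0.1, the smallest that 3 against 3 samples allow, and a share of 8.33% is near the background.

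In the edgeR fit the smallest p-values among the members belonged to Ttll9 and Ttll3, whose groups overlapped. Ttll9 had 61.7, 137 and 104 CPM in cKO 1 to 3 against 45.7, 76.9 and 60.8 in control 1 to 3. Its log2 difference was 0.72 ± 0.39, with an interval from 0.885-fold to 3.08-fold (edgeR adjusted p = 0.99999), and the lowest value of the cKO lay among those of the control. Ttll3 had 122, 117 and 196 CPM against 126, 77.0 and 87.8 in the same order. Its log2 difference was 0.58 ± 0.32, with an interval from 0.897-fold to 2.50-fold (edgeR adjusted p = 0.99999), and 0.30 without cKO 3, the highest library.

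By role, 4 of the 7 tested glutamylases were higher and 3 lower in the cKO, 1 of 3 glycylases was higher, and 3 of 4 deglutamylases were higher. Of the tested beta tubulins 3 were higher and 1 lower, both tested alpha tubulins were lower, and 1 of 4 folding cofactors was higher and 3 lower. No gene among these passed the test, and the counts by direction were not themselves tested. Tubgcp2 had the largest difference among members with a mean of at least 10 TPM, a log2 difference of 1.40 ± 1.21 with an interval from 0.380-fold to 18.4-fold, and 105, 48.4 and 48.4 CPM in cKO 1 to 3 against 3.77, 70.3 and 2.24 in control 1 to 3. Control 2 lay within the range of the cKO, and without it the difference was 4.49. Without any other single library the difference ran from 0.86 (without control 3) to 1.59 (without cKO 2).

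Presence in only some libraries was seen among the tested members, and its share varied with abundance. Of the 36 tested, 9 (25.0%) had 3 or fewer counts in at least 1 library, beside 36.9% of all genes tested. All 12 members with a mean of at least 1000 counts were above 3 counts in every library, while 7 of the 10 with a mean under 200 counts were not. Over all genes tested, 0.0749% of those of at least 1000 counts and 77.15% of those under 200 had such a library. Between 400 and 1000 counts it was 12.5% of 8 members beside 9.36% of all genes. From 200 to 400 counts it was 16.7% of 6 members beside 32.7%. Of the 20 members that did not pass the filter, 9 had no count at all and 11 had counts in some libraries.

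A list of 26 further genes of the same pathway, outside the name rule, was read from the same fit. Of its 23 tested genes, 12 had a log2 difference above 0 and 11 below. Of these edgeR called 0, as of all genes tested. Under an unadjusted edgeR p of 0.05 there was 1, Agtpbp1, where 2.75% of all genes tested passed. Agtpbp1, which encodes the deglutamylase CCP1, had 77, 359 and 151 counts in cKO 1 to 3 against 2, 0 and 1 in control 1 to 3. The groups did not overlap, and the fitted log2 difference of 7.60 ± 2.29 depends on the prior count, since the controls were near 0 (edgeR adjusted p = 0.99999). Hdac6, which encodes a tubulin deacetylase, had 172 counts in cKO 1, 169 in cKO 3, 1 in cKO 2 and 0 in every control library, and did not pass the filter. DESeq2 called both (adjusted p = 6.73e-06 for Agtpbp1 and 0.0309 for Hdac6). These were 2 of the 23 list genes with a DESeq2 p, beside 1.63% of all genes to which it gave an adjusted p. Sirt2, a further deacetylase gene, stood at 98.1, 142 and 114 TPM in the cKO and 138, 125 and 162 TPM in the control. Ttl, the ligase that restores the final tyrosine, stood at 14.1 ± 5.27 TPM in the cKO and 14.3 ± 8.06 TPM in the control (SD, n = 3 each).

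The other genes named from the list, of which Hdac6, Ttl, Pfdn2 and Nedd1 were picked after their values were seen, stood as follows over the 6 libraries (mean ± SD). Nicn1, of the TTLL1 complex, stood at 54.9 ± 22.6 TPM and Lrrc49 at 12.6 ± 9.72 TPM. Of the prefoldin subunits, which deliver unfolded tubulin to the chaperonin, Pfdn5 stood at 281 ± 51.6 and Pfdn1 at 243 ± 36.1 TPM. Groups that did not overlap in CPM were found for 3 of the 23 tested genes (13.04%), beside 9.62% of all genes tested: Agtpbp1, Pfdn2 and Nedd1, each higher in the cKO. Pfdn2 stood at 77.0, 58.5 and 59.2 TPM in the cKO and 26.1, 44.4 and 44.7 TPM in the control (log2 difference 0.78 ± 0.35, edgeR adjusted p = 0.99999). Nedd1, which anchors gamma-tubulin rings, had 34.1, 32.9 and 18.4 CPM in cKO 1 to 3 against 0, 10.7 and 0.0639 in control 1 to 3. Of the severing enzymes, which read tail glutamylation, Katnal2 stood at 62.4 ± 13.5 and Katna1 at 43.5 ± 16.2 TPM, and of the small gamma-tubulin ring components Mzt1 stood at 43.4 ± 26.9 and Mzt2 at 34.2 ± 9.97 TPM.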

How the data were processed

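RNA of 3 cKO and 3 control samples was analysed, grouped by title. Per the submitters' processing notes, CASAVA 1.8, cutadapt 1.11 and kallisto 0.42.5 were used; build and annotation: not given in the sources used here. Per the file headers, the deposited values are an estimated count, not normalized, and a TPM for each gene. Estimated counts were rounded, filtered by filterByExpr, TMM-scaled and tested by the quasi-likelihood method of edgeR 4.0.16 (robust, genotype as the only term) in R 4.3.3, with Benjamini-Hochberg adjustment over all 11574 genes. Alternatives used DESeq2 1.42.0 and limma 3.58.1. The functions were run on simulated data, and the outcome is not reported here. Coordinates and sequences are from GENCODE M21 (GRCm38), to which 99.1% of identifiers matched without version. Protein sequences were not used here, and some items are not reported here. The members and lists were chosen with earlier results of these data known. Members with a mean of at least 10 TPM, an edgeR p under 0.05, or groups apart and at least 5 CPM were given in full. Same-numbered samples were not treated as pairs.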

Additional observations from a re-analysis of the deposited data

How the results depend on the processing

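The count of members called was 0 in each of the 9 alternatives and in each of the 6 fits without 1 library. DESeq2 alone made calls: 198 over all genes (1.63% of those with an adjusted p) and 2 of the 23 related genes with a p. The cause was not tested. Ccn1 ran from -2.27 to -2.21 in the 9 alternatives and from -2.50 to -1.97 without 1 library. In CPM the control share of Tubb4b among beta tubulins was 80.0%, since CPM does not correct for length, and the cKO share of Tubb4b and both shares of Tuba1a moved by less than their SD; other shares were not computed in CPM. Deviations of same-numbered samples correlated little (0.008, 0.031 and 0.015), though each sample correlated best with its own number. With 3 samples per genotype this cannot decide whether the numbers pair the samples. A fit with the replicate block called 0 genes and 0 members. Of 24 named genes with a fit, 21 kept their sign in the 9 alternatives. Tpgs2 changed sign to -0.00035 with limma-voom, -0.014 on log2(TPM + 1), -0.015 on log2(TPM + 0.1) and -0.0032 with the replicate block. Atat1 changed to 0.019, 0.018 and, with total counts only, 0.0035. Tbce changed to 1.85 with limma-voom, 0.57 and 1.42 on the TPM scales and 0.48 with the block. Why these signs turned was not tested. Without 1 library, the sign turned for Tubb4b (-0.077 to 0.23), Tppp3 (-0.14 to 0.040), Tpgs1 (-0.42 to 0.13), Tbcb (-0.42 to 0.062), Tpgs2 (-0.19 to 0.32), Ttll1 (-0.14 to 0.62), Tbcc (-0.28 to 0.37), Atat1 (-0.25 to 0.24), Agbl4 (-0.43 to 0.78), Tbce (-0.71 to 0.94) and Ttll13 (-0.19 to 1.31).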

Other observations

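The TPM and the counts of Agbl3 and Agbl4 gave unlike pictures of control 3. The number of counts behind 1 TPM depends on the length of the transcripts to which reads were assigned, and it was compared with the median gene of each library. For Agbl3 this relative value was 0.401 to 0.546 in 5 libraries and 1.10 in control 3, which therefore had more counts per unit of TPM than any other library. For Agbl4 it was between 0.630 (cKO 1) and 1.49 (control 3). Of the 20 members with at least 100 counts in every library, these 2 were the only ones whose highest and lowest relative value differed by over 2-fold, beside 2.46% of 5331 genes. For Tuba1a, Tuba1b, Tubb4b and Tubb2a the same ratio was 1.01.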
